A study of Oryza sativa with 6 samples.

Results

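In leaves of rice seedlings that carry an antisense construct against OsPDCD5, 208 genes without a name had lower signals than in nontransgenic leaves before NaCl and after 20 min and 3 h in it. They were chosen by that difference, among 12475 unnamed genes that passed a filter on low signal and 17905 genes that the array measured with probe sets of 1 gene each. A gene counted as unnamed when the reference gene table gave it only a symbol of LOC and digits, with no other name than a clone or locus number. On the scale log2(signal + 16), the transgenic value had to be lower by at least 1.5, a 2.83-fold difference, at each of the 3 stages. Probe sets that changed by at least 1 in NaCl in both genotypes, at the same time and in the same direction, were dropped (23 of 243), and 1 probe set stood for each gene, the brightest of those that met the rule. A further 35 genes with a LOC symbol but a name among their synonyms met the rest of the rule and are not members. Genes whose symbol is itself a name were not considered.

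The tested seedlings were antisense-OsPDCD5 transgenic Zhonghua 11, a japonica rice, and their control was nontransgenic Zhonghua 11. Both were 2 weeks old and grown on the same medium, and leaves were taken before treatment, at 20 min and at 3 h in 200 mM NaCl. Each of the 6 groups was 1 Affymetrix array made from leaves of 10 plants, so no group has a replicate and no value below has an error between plants. The labels name no promoter, no line number and no count of independent transformants for the transgenic plants, and no seedlings moved to new dishes without NaCl. Any lasting difference between the 2 sets of seedlings other than the transgene would appear at every stage and cannot be told apart from it. That includes any difference in genetic background: the labels call both Zhonghua 11, which was not tested here, and a change of sequence under the probes cannot be told apart from less RNA by a signal.

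PDCD5 proteins are known from animals as promoters of programmed cell death, and the rice gene carries that name. An antisense construct is meant to lower the target's transcript. A LOC symbol is a number in place of a name, and here genes with a known name, such as RBCS and CAB2R, carry one too. The members are thus unnamed in the reference gene table only, and may have names elsewhere. The tables give no function for the members, and none is given here. On this kind of array, a gene is read by one or more probe sets, each a group of short probes near the 3′ end of a transcript, and the MAS5 signal summarises one probe set on one array. A signal therefore reports the RNA that matches those probes, and fewer cells with a transcript and less of it per cell cannot be told apart.

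The arrays had been brought to a common mean, and their median signal over 57258 rice probe sets lay between 32.1 and 37.4 in transgenic and between 30.7 and 38.9 in nontransgenic leaves. Of the leaf genes, RBCS, PSAG, PSAH and PSB28 had signals of 2218 or more on every array, and RBCS1 had 27.6 or less. The antenna gene CAB2R had signals of 39169 to 42348 in transgenic and 27103 to 41024 in nontransgenic leaves. Of the root genes of silicon transport, Lsi2 stayed between 1 and 1.53 in both genotypes, while Lsi1 had 744 to 1101 in transgenic and 537 to 792 in nontransgenic leaves. The gene tables link the name OsPDCD5 to none of the probe sets, so the target gene was not analysed here. Whether the construct lowered its target on these arrays was thus not checked.

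The members were lower at every stage by the rule, by sizes that varied between stages in many of them. The median member was lower in transgenic leaves by 2.96 before NaCl, by 2.48 at 20 min and by 2.72 at 3 h, on the log2(signal + 16) scale. Over all 12475 unnamed genes the medians of the same differences were -0.03, -0.05 and -0.03. These values chose the members and are given as a description. Taking the brightest probe set of every unnamed gene, 1.72% (215 genes) were lower by at least 1.5 at all stages, and 0.649% (81 genes) were higher by as much.

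Averaged over the stages, the differences ran between -7.21 and -1.57, and 182 of the 208 members had a mean of -2 or less, against 1.72% of all unnamed genes. A mean of -4 or less was reached by 30 members, and by 0.24% of all unnamed genes. Every transgenic signal was below every nontransgenic signal in 206 members, an order that 17.1% of all unnamed genes showed. These counts largely follow from the rule, and the unnamed genes include the members, so nothing is read from them. In the median member, the lowest nontransgenic signal was 4.42 times the highest transgenic one. In the remaining 2 members the transgenic signal was lower within each stage, but signals of different stages overlapped. LOC4341168 reached 172 in transgenic leaves at 20 min, against 165 in nontransgenic leaves at 3 h, and LOC4340632 reached 543 in transgenic leaves at 3 h, against 445 in nontransgenic leaves at 20 min.

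An additive fit of genotype and stage over all 28961 probe sets past the filter called all 208 members lower (limma, adjusted p under 0.05). It called 10.5% of all probe sets lower and 9.81% higher. Since the members were chosen on this contrast, nothing is read from that count.

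**Figure D1:**
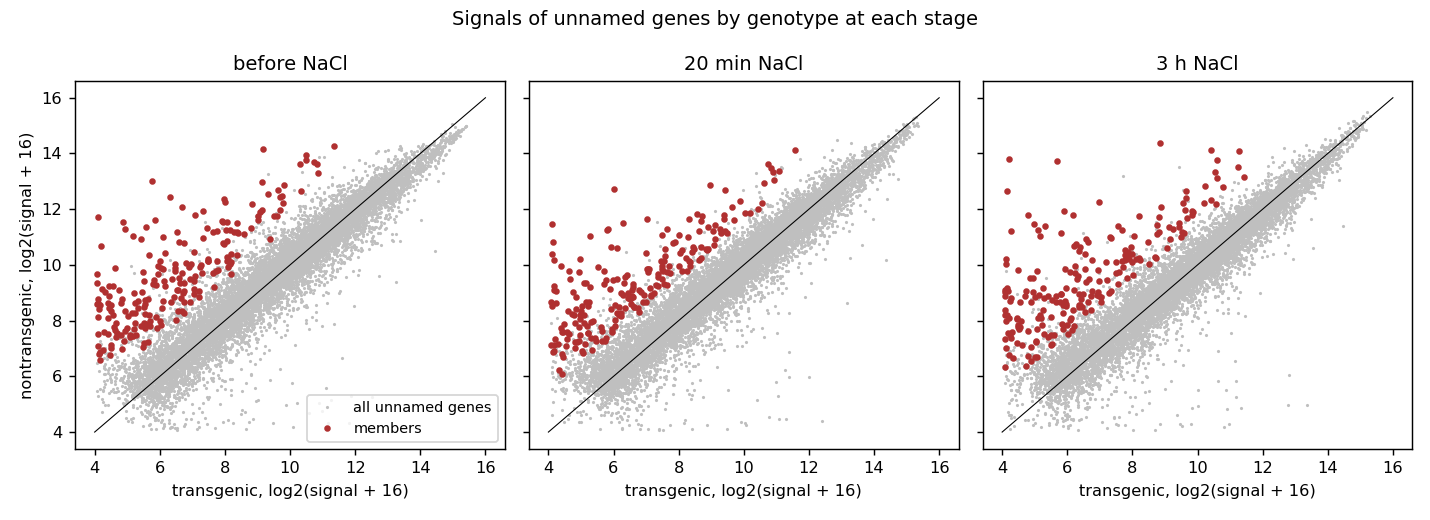
Log2(signal + 16) of the unnamed genes in transgenic leaves (horizontal axis) and nontransgenic leaves (vertical axis), 1 panel for each stage, with 12475 genes in grey, the 208 members in red and a line where both are equal. The members lie above the line at each stage by construction, and their transgenic values reach down to the floor of the scale at 4, while all members had nontransgenic signals of 16 or more.

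How far the members went down in transgenic leaves varied. In 25 members every transgenic signal of the chosen probe set was under 16, the offset added before taking logs, so the size of their difference depends on that offset. The offset is no measured background, and the deposited tables used here gave no detection calls. At least 1 transgenic signal was under 16 in 75 members. In 133 members all transgenic signals were 16 or more, and in 67 of these all exceeded 100. No member had a nontransgenic signal under 16, and 63 had nontransgenic signals over 1000 at every stage. The median of the members' mean signals was 66.4 in transgenic and 690 in nontransgenic leaves, where all unnamed genes had 802 and 851.

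The 12 largest mean differences belong to genes that were bright in nontransgenic leaves and, but for LOC4352487, below 200 in transgenic leaves. LOC4340994 had signals of 2.38, 1.54 and 1.83 before NaCl, at 20 min and at 3 h in transgenic leaves, against 1620, 1773 and 6406 in nontransgenic leaves. Its difference was -7.21 ± 1.11 (mean ± SD over the 3 stages, here and below), and its nontransgenic signal was highest at 3 h. With transgenic signals this low the size is set by the offset: the difference was -9.83 with an offset of 1 and -5.36 with an offset of 64. LOC4326000 had 1.31, 1.46 and 11.8 in transgenic leaves, against 3356, 1335 and 3553 in nontransgenic leaves, a difference of -6.96 ± 0.67. LOC4351341 had 14.5, 1.399 and 3.38 in transgenic leaves, against 2503, 2842 and 2394 in nontransgenic leaves (-6.90 ± 0.50). In these 3 genes no transgenic signal came above the offset.

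LOC4345406 kept some signal, with 64.2, 48.0 and 35.7 in transgenic leaves, against 5550, 6737 and 13474 in nontransgenic leaves (-6.96 ± 0.98). With an offset of 64 its difference, -6.15, was larger than that of LOC4340994. LOC4338334 had 27.4, 23.0 and 15.3 in transgenic leaves, against 1928, 2078 and 2822 in nontransgenic leaves (-5.91 ± 0.53). In both, the highest nontransgenic and the lowest transgenic signal fell at 3 h. LOC4329504 was steadier, with 31.6, 41.3 and 23.7 in transgenic leaves, against 2602, 2489 and 2692 in nontransgenic leaves (-5.77 ± 0.32). Its other probe sets past the filter, all dimmer, had smaller mean differences of -3.85, -3.17 and -2.25. LOC4329403 had 1, 4.76 and 1.25 in transgenic leaves, against 805, 991 and 1024 in nontransgenic leaves (-5.70 ± 0.18). At their chosen probe sets, LOC4329504 and LOC4329403 changed by less than 0.4 on the log2 scale in NaCl in either genotype.

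LOC4347323 had 13.2, 62.5 and 40.3 in transgenic leaves, against 2935, 2871 and 2241 in nontransgenic leaves (-5.73 ± 0.81). LOC4330010 had 35.2, 1.86 and 1.27 in transgenic leaves, against 1293, 1134 and 1164 in nontransgenic leaves (-5.59 ± 0.80). In both genes the nontransgenic signals were steadier over the stages than the transgenic ones. LOC4352487 was the brightest of the 12, with 558, 481 and 449 in transgenic leaves, against 18489, 7514 and 21462 in nontransgenic leaves (-4.82 ± 0.82). Its transgenic signals were far above the offset, with a mean 31.9 times lower than in nontransgenic leaves.

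**Figure D2:**
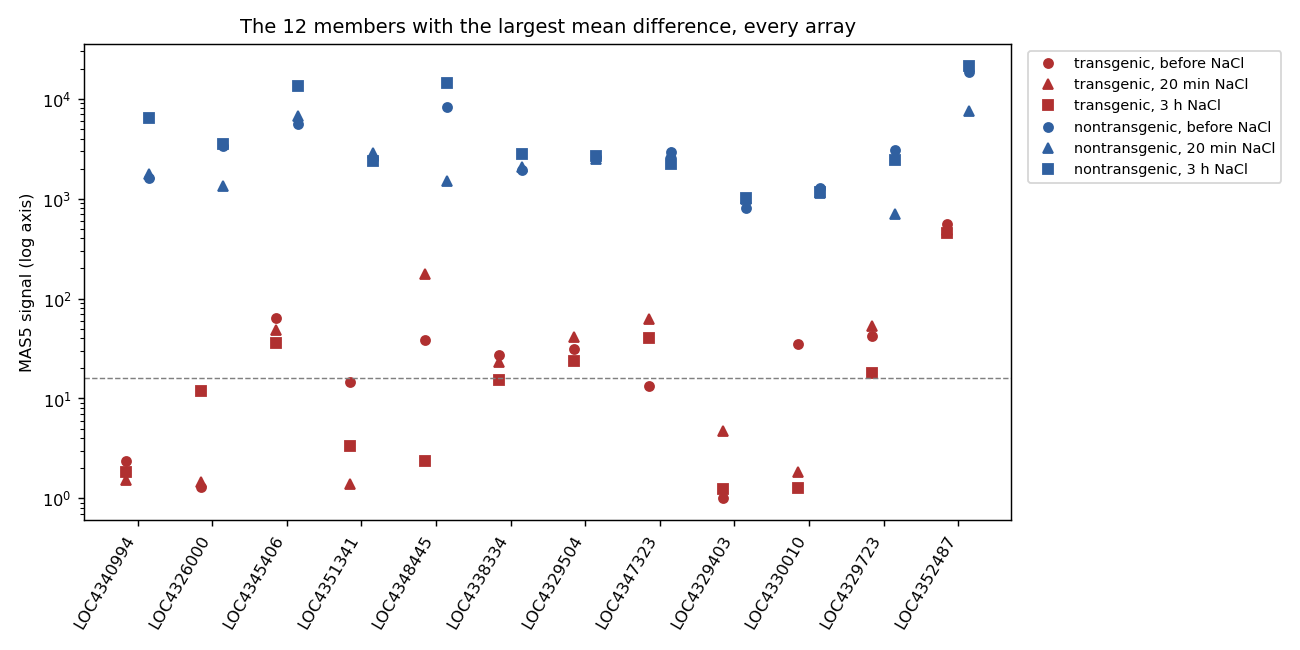
MAS5 signal (log axis) on each of the 6 arrays for the 12 members with the largest mean difference, transgenic in red left of nontransgenic in blue, with a symbol for each stage and a dashed line at the offset of 16. The colours are apart in every gene, and the closest approach is that of LOC4348445 at 20 min, 176 in transgenic and 1504 in nontransgenic leaves.

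Bright members with smaller differences were LOC4327172, LOC4329601, LOC4330036 and LOC4331468, which with LOC4352487 had the 5 highest mean signals in nontransgenic leaves. LOC4327172 had 2579, 3043 and 2460 in transgenic leaves, against 19498, 18020 and 17288 in nontransgenic leaves (-2.76 ± 0.18). LOC4329601 had 1413, 1711 and 1466 in transgenic leaves, against 13932, 12724 and 10438 in nontransgenic leaves (-3.00 ± 0.25). In both genes the transgenic and nontransgenic signals lay far apart at every stage. LOC4330036 had 1260, 1798 and 1533 in transgenic leaves, against 12632, 11404 and 13880 in nontransgenic leaves (-3.04 ± 0.34). LOC4331468 had 1435, 2141 and 1360 in transgenic leaves, against 15621, 10631 and 17767 in nontransgenic leaves (-3.14 ± 0.74), and its difference was smallest at 20 min.

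The stage differences of a member lay within 0.5 of each other in 44 members and within 1 in 120. The steadiest at its chosen probe set was LOC4327922, with 260, 337 and 259 in transgenic leaves, against 1169, 1501 and 1175 in nontransgenic leaves (-2.11 ± 0.01). A brighter probe set of this gene did not meet the rule, at -1.30, -1.38 and -1.07, and a dimmer one had a mean of -2.40. In 21 members the stages were spread by over 2. The difference was largest before NaCl in 96 members, at 20 min in 37 and at 3 h in 75. The SD over the stages had a median of 0.47 in the members and 0.23 over all unnamed genes.

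At the edge of the rule, the members nearest to the threshold were LOC4340632, LOC4345360 and LOC4332095, whose smallest stage differences were -1.504, -1.513 and -1.515. Just outside lay LOC4334413, LOC4329518 and LOC4335030, which met every other part of it, at -1.498, -1.498 and -1.494. The limit thus divides genes with nearly equal values.

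Salt changes of the members came mostly in one genotype at a time. This is in part the work of the rule, which dropped changes shared by both genotypes, and the level before NaCl enters both the salt change and the choice of members, so these counts are descriptions. In 129 of 208 members no change reached 1 on the log2 scale at either time in either genotype (62.0%, against 79.8% of all unnamed genes). A change of at least 1 at either time was found in 46 members in transgenic leaves and in 47 in nontransgenic leaves, against 14.8% and 12.1% of all unnamed genes. The transgenic count rests on the offset: it was 86 with an offset of 1 and 13 with an offset of 64, where the nontransgenic count was 50 and 39.

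The most frequent change was a fall at 20 min in nontransgenic leaves, found in 25 members (12.02%), while 1.84% of all unnamed genes fell as much. In contrast to these, 5 members (2.40%) fell at 20 min in transgenic leaves, against 2.16% of all unnamed genes. Of the 25, 13 were back within 0.5 of the level before NaCl at 3 h, 4 were higher than it by over 0.5 and 3 were still lower by at least 1. The share that was back, 52%, was near the 46.3% among all 229 unnamed genes that fell at 20 min in nontransgenic leaves. In transgenic leaves at 20 min, 15 of the 25 stayed within 0.5 of the level before, 6 fell by over 0.5 and 4 rose by at least 0.5. Where a transgenic signal was already under the offset, the scale leaves little room for a fall. The other counts at 20 min were 17 rises in transgenic leaves (background 3.69%) and 5 rises in nontransgenic leaves (3.74%). At 3 h there were 14 rises and 15 falls in transgenic leaves (6.16% and 4.52% of all unnamed genes), and 12 rises and 11 falls in nontransgenic leaves (5.13% and 3.26%).

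LOC4348445 had the deepest of these dips. Its signals were 38.7, 176 and 2.36 in transgenic leaves, against 8249, 1504 and 14326 in nontransgenic leaves, so that the genotypes came nearest at 20 min (difference -2.99) and stood farthest apart at 3 h (-9.61). LOC4329723 had 41.8, 52.6 and 18.0 in transgenic leaves, against 3095, 707 and 2445 in nontransgenic leaves, and fell by 2.11 at 20 min in nontransgenic leaves. LOC4326000 and LOC4352487, given above, fell by 1.32 and 1.30 there and were back at 3 h.

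Later falls were seen in LOC4350662 and LOC4334944. LOC4350662 had 8.80, 29.8 and 29.3 in transgenic leaves, against 942, 946 and 165 in nontransgenic leaves, a fall of 2.40 in nontransgenic leaves at 3 h, with no change at 20 min. LOC4334944 had 12.5, 10.6 and 10.5 in transgenic leaves, against 423, 287 and 66.9 in nontransgenic leaves. In both genes the transgenic signals were below 30 at every stage.

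The largest rises were those of LOC4329572, LOC4337486, LOC4332422 and LOC4339526. LOC4329572 had 91.1, 660 and 56.8 in transgenic leaves, against 1738, 3191 and 3515 in nontransgenic leaves, a rise of 2.66 at 20 min in transgenic leaves that was gone at 3 h. LOC4337486 had 234, 393 and 1496 in transgenic leaves, against 5224, 3067 and 4609 in nontransgenic leaves, a rise of 2.59 at 3 h in transgenic leaves. The genotypes of this gene thus drew closer over the 3 stages, at -4.39, -2.91 and -1.61. LOC4332422 had 121, 294 and 791 in transgenic leaves, against 3553, 2054 and 6487 in nontransgenic leaves. LOC4339526 had 30.4, 17.8 and 58.2 in transgenic leaves, against 282, 643 and 1637 in nontransgenic leaves, and its rise of 2.47 at 3 h was in nontransgenic leaves. With 1 array a group, none of these differences of response was tested.

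**Figure D3:**
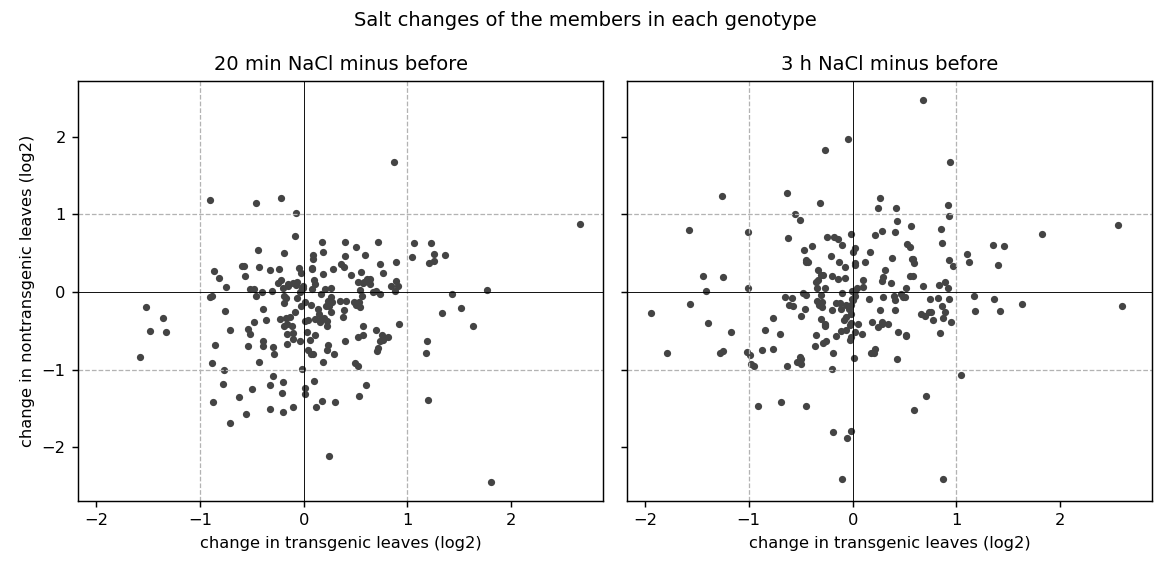
Log2 change in NaCl of the 208 members in transgenic leaves (horizontal axis) and nontransgenic leaves (vertical axis), at 20 min and at 3 h, with dashed lines at -1 and 1. The corners where both genotypes change by at least 1 the same way are empty by the rule, and at 20 min the points below -1 on the vertical axis are the 25 members that fell in nontransgenic leaves.

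The array reads some genes with several probe sets, and those not chosen by the rule give another reading of the same genes on the same arrays. Another probe set of 1 gene existed for 60 members, and 62 such probe sets of 46 members passed the filter. Of these 62, 43 were lower in transgenic leaves at all 3 stages, 24 of them by at least 1.5, and their median mean difference was -1.45. A further 8 were higher at all stages and 11 had mixed signs. Leaving aside sets ending in _x_at, a mark for probes that may also match other transcripts, 14 members had a brighter probe set that did not meet the rule, and 7 of these brighter sets had a positive mean difference. Of the 62, 21 ended in _x_at, and whether any of the 62 share probes with the chosen set was not checked.

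In 3 members another probe set was clearly higher in transgenic leaves. For LOC4350802 the chosen probe set had 48.4, 34.1 and 29.4 in transgenic leaves, against 236, 180 and 125 in nontransgenic leaves. Its brighter probe set had 2213, 2138 and 1900 in transgenic leaves, against 1.69, 6.01 and 12.1 in nontransgenic leaves, a mean difference of 6.56 ± 0.44. For LOC4329444 the chosen probe set had 16.1, 15.1 and 9.78 in transgenic leaves, against 197, 249 and 456 in nontransgenic leaves. Its other probe set had 320, 294 and 360 in transgenic leaves, against 2.53, 1.12 and 6.27 in nontransgenic leaves (4.15 ± 0.06). The readings of these genes are opposite, and each is the same at every stage.

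LOC4351341, with a difference of -6.90 by its chosen probe set, had a brighter one with 1580, 1691 and 1900 in transgenic leaves, against 528, 492 and 803 in nontransgenic leaves (1.51 ± 0.26). A dimmer one ran with the chosen set, at 10.3, 14.1 and 8.86 in transgenic leaves and 155, 238 and 189 in nontransgenic leaves. In 15 of the 62 other probe sets the mean difference was within 0.5 of 0. LOC4339550 had 52.4, 44.8 and 79.4 by its chosen probe set in transgenic leaves, against 2010, 1597 and 1915 in nontransgenic leaves. Its brighter set had 762, 708 and 613 in transgenic leaves, against 541, 559 and 575 in nontransgenic leaves. LOC4331468, among the brightest members, stood at -3.14 by its chosen probe set and at 0.15 by a dimmer one, while another dimmer set was at -3.67. For such genes a lower signal at the chosen probe set is not a lower reading of the gene as a whole. Which part of a transcript each probe set reads was not analysed here.

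**Figure D4:**
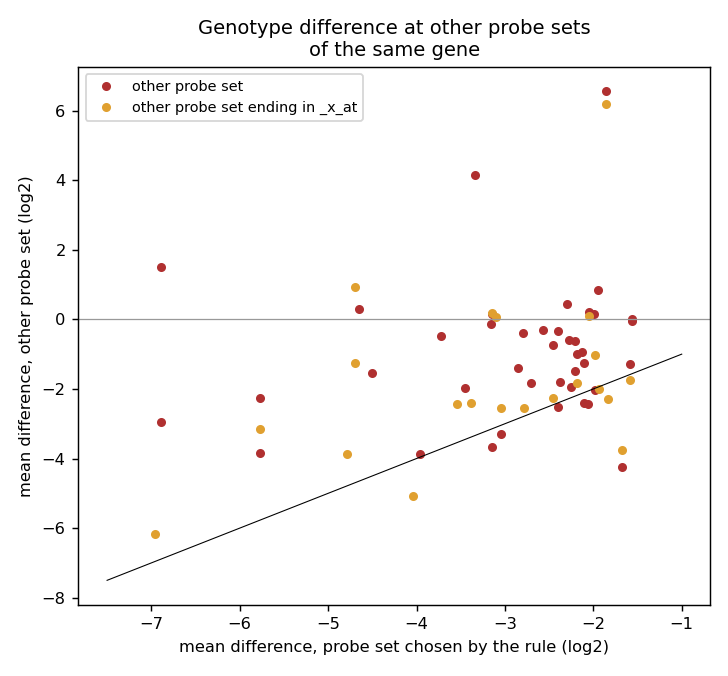
Mean genotype difference over the 3 stages (transgenic minus nontransgenic, log2) at the chosen probe set of a member (horizontal axis) and at its other probe sets that passed the filter (vertical axis, 62 points), with a line of equality. Most points lie between that line and 0, and the 4 points above 1 belong to LOC4350802, LOC4329444 and LOC4351341.

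The share of members differed between chromosomes, which was not tested against genes placed at random. Gene order was taken from the RefSeq reference assembly ASM3414082v1, and 14509 genes with a measured probe set were ranked in it. Members made up 1.43% of these genes, which is 1 in 69.8. The median distance between successive members was 29.5 places, and 17 members directly followed another. A median distance lies below the mean even for genes placed at random, so it is not set against the 1 in 69.8. Within 100 kb of another member lay 60 of the 208, and the share for other sets of genes was not counted. The share was 3.01% on chromosome 11 and 2.26% on chromosome 2, and 0.679% on chromosome 3. Divided into windows of 50 measured genes, 9 of 296 windows held 4 or more members. These 9 held 3.10% of the measured genes and 19.7% of the members, and 4 of them lay on chromosome 2. Windows picked for holding many members have a raised share even when members are placed at random. The share expected then was not counted.

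The densest stretch was on chromosome 2, where LOC4328946, LOC4328950, LOC4328956, LOC4328957, LOC4328958 and LOC4328985 fell among 19 successive measured genes. LOC4328946 had 1.55, 12.5 and 1.26 in transgenic leaves, against 326, 328 and 238 in nontransgenic leaves (-3.92 ± 0.35). LOC4328957 and LOC4328958 are neighbours, at -2.35 ± 0.16 and -2.86 ± 0.51. LOC4328956, on the same stretch, was at -2.57 by its chosen probe set but at -0.30 by a brighter one, with 5416, 4246 and 7591 in transgenic leaves and 6043, 6070 and 8846 in nontransgenic leaves. Of the 13 other genes in the stretch, 1 had a mean difference of at least 1 in size. On chromosome 5, LOC4339526, LOC4339529, LOC4339548, LOC4339550 and LOC4339562 lay among 21 measured genes, with differences between -4.65 and -2.50, and 2 of the 16 other genes were higher by over 1. Past 1 in size were thus 7.69% and 12.5% of the other genes of these stretches, against 8.21% of all non-members. Counts this small are not read further.

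Pooled over windows, genes that were not members differed more between the genotypes where members were dense. They include the 35 named genes that met the rest of the rule, and genes dropped for a shared salt change. Both kinds met the same genotype limit as the members, and the spread without them was not computed. The SD of the non-members' mean genotype difference was 0.56 in the 172 windows without a member, 0.67 with 1 member, 0.76 with 2, 0.86 with 3 and 0.90 with 4 or more. The share with a mean difference of at least 1 in either direction was 7.25% in windows without a member, 8.70% with 1, 9.09% with 2, 13.0% with 3 and 12.7% with 4 or more. Both directions were involved: in windows with 4 or more members 7.82% of the other genes were lower and 4.89% higher, against 4.59% and 2.66% in windows without a member. Their median stayed near 0 throughout, between -0.07 and -0.03. Single windows with 4 or more members varied, with SDs between 0.49 and 1.59. The highest were 1.59 on chromosome 11 and 1.23 on chromosome 1. Values of 0.49 on chromosome 1 and 0.51 on chromosome 2 lay below the 0.56 of windows without a member. The share past 1 ran between 4.35% and 17.4% in these windows.

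The salt changes of the same genes showed no such gradient. At 3 h their SD was 0.65 in transgenic and 0.58 in nontransgenic leaves in windows with 4 or more members, against 0.69 and 0.61 in windows without a member. By distance, non-members directly beside a member had an SD of 0.95 for the genotype difference and those over 40 places away one of 0.56. It was as wide at each stage alone, with 1.03, 0.99 and 1.03 beside a member and 0.68, 0.63 and 0.61 far from one. Unnamed genes higher in transgenic leaves by the mirrored rule numbered 85, and 35 of them (41.2%) lay within 10 places of a member, where 21.5% of the non-members lay. The 85 include LOC4350802 and LOC4329444, which are members themselves by another probe set, so the shares are not fully alike. Genes are not replicates, so no test was made on these figures.

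**Figure D5:**
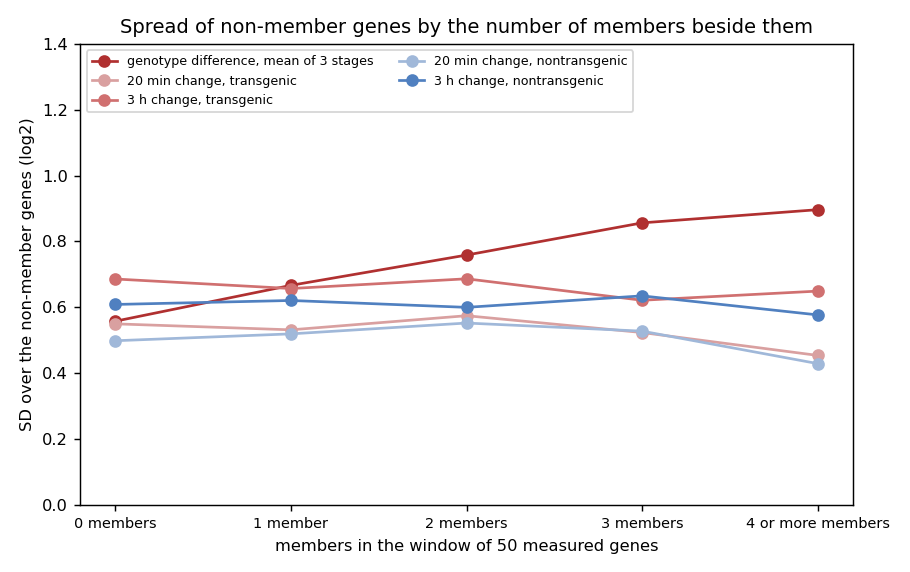
SD over non-member genes (log2) in windows of 50 successive measured genes, pooled over windows grouped by how many members they hold, for the genotype difference and for the 4 salt changes. The line of the genotype difference climbs between 0.56 in windows without a member and 0.90 in windows with 4 or more, while the salt changes show no such climb.

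Some members lie beside named genes that met the same rule. Of the 35 such genes, all with a LOC symbol and a name as synonym, 14 (40%) lay within 5 measured places of a member, as did 11.8% of all non-members. On chromosome 2, LOC4330032 and LOC4330036 flank a PAL gene, whose product, phenylalanine ammonia-lyase, opens phenylpropanoid synthesis, with PAL06 next to LOC4330036 among the measured genes. LOC4330032 had 1836, 1565 and 1756 in transgenic leaves, against 9942, 7813 and 7069.9 in nontransgenic leaves. The PAL gene itself (LOC4330034) had 610.3, 286 and 630.5 in transgenic leaves, against 9420, 7896 and 5179 in nontransgenic leaves.

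LOC4352487 lies 3 measured places away from PBZ1, a pathogenesis-related gene of rice, on chromosome 12. PBZ1 had 4494, 2297 and 319 in transgenic leaves, against 25688, 20104 and 30780 in nontransgenic leaves, so that both were very bright in nontransgenic leaves. LOC4326000 is next to pinA and 2 measured places from the trypsin inhibitor gene RBTI on chromosome 1. Mean differences of these 3 genes were -6.96, -6.57 and -4.25.

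Other named genes near a member were the AT4, HSP16.9B, NIP1-1, PDIL1-1, CAD8A and ARP9 genes, with mean differences between -4.16 and -2.03. LOC4329723 lies 5 measured places from CYP76M6 on chromosome 2, and LOC4341445 is next to CYP76M7 on chromosome 6 in the order of measured genes. CYP76M6 had 6.33, 5.61 and 6.71 in transgenic leaves, against 791, 174 and 677 in nontransgenic leaves, and so had, as LOC4329723 did, its lowest nontransgenic signal at 20 min. LOC4341445 had 292, 464 and 557 in transgenic leaves, against 2310, 2604 and 1922 in nontransgenic leaves, with no dip at 20 min. On chromosome 4, LOC4335079 lies 2 measured places from ARP9 and 3 from CPS4, which makes syn-copalyl diphosphate, a precursor of rice diterpenoids. LOC4335079 had 29.8, 14.9 and 17.6 in transgenic leaves, against 664, 843 and 874 in nontransgenic leaves. CPS4 had 41.02, 51.6 and 60.3 in transgenic leaves, against 1572, 327 and 1662 in nontransgenic leaves. Nearness in gene order says nothing of what a member does.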

How the data were processed

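RNA from rice leaves was labelled with a 3′ kit and hybridised to 6 arrays, per the labels' protocols. Each deposited table gave 1 log2 value for every probe set. MAS5 is the tool that the submitters' processing notes name; its version, scaling target and detection calls are not given in the sources used here. Genes came from the platform annotation (22436 probe sets with 1 gene, 95 with several, 34727 with none), and all 22436 were found in the RefSeq table. Signals were made linear, 16 was added and log2 was taken; probe sets ending in _x_at or with a mean under 5.5 were left out. Genotype was fitted with stage as an additive factor with limma 3.58.1 (R 4.3.3) and Benjamini-Hochberg adjustment, checked on simulated data. The fit left 2 residual degrees of freedom, so it measures no spread between replicates. The members, their neighbours and the lists were chosen with earlier results of these data known. Planned word classes of gene descriptions, promoter motifs and protein comparisons were not made, since the tables used hold neither descriptions nor sequences. Named members were those with the 12 largest mean differences, the 5 brightest in nontransgenic leaves, the 4 largest falls and rises in NaCl, the edge of the threshold, and examples of deviating other probe sets and of close neighbours; members named for their closeness to a gene with a name were added after the values were seen.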

Additional observations from a re-analysis of the deposited data

Results flagged for a closer look

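In 4 members the salt changes of the genotypes went opposite ways by at least 1 each at the same time. The difference was not tested, as each change rests on 1 pair of arrays. LOC4348445 rose by 1.81 at 20 min in transgenic leaves and changed by -2.44 in nontransgenic leaves. LOC4351199 rose by 1.20 at 20 min in transgenic leaves and changed by -1.39 in nontransgenic leaves, but its transgenic signal before NaCl was 1.25, below the offset of 16. LOC4344160 rose by 1.04 at 3 h in transgenic leaves and changed by -1.06 in nontransgenic leaves. LOC4349759 changed by -1.26 at 3 h in transgenic leaves and rose by 1.24 in nontransgenic leaves; its transgenic signal at 3 h was 2.09, so the size of its fall depends on the offset.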

How the results depend on the processing

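The number of members, 208, became 391 with a limit of -1 and 128 with a limit of -2. Under the other settings tried it lay between 139 (offset of 64) and 284 (the 20 min pair not required), with 194 when the brightest probe set of each gene was taken first and 254 when arrays were scaled to the control probe sets. The genes changed too: 177 of the 208 were among the 204 found with an offset of 1, and 137 among those found with an offset of 64. The median difference of the members moved to -3.12 with an offset of 1 and -2.17 with an offset of 64. Scaling to the control probe sets shifted the median of all unnamed genes to -0.26, and the members then stood at -2.67 relative to it. All 208 members stayed lower at all 3 stages under the 3 scalings and, since an offset cannot change the sign of a difference, under both offsets. The scalings left the median of all unnamed genes between -0.26 and 0.02, small beside the limit of 1.5. That count is therefore no check of the members. Members with a salt change of at least 1 in transgenic leaves numbered 46, but 86 with an offset of 1 and 13 with an offset of 64. Calls of the additive fit over all probe sets were 1657 lower and 1405 higher without the intensity trend. They were 5744 and 1623 when scaled to the control probe sets, 1545 and 1449 without the pair before NaCl, and 1888 and 1622 without the pair at 20 min, against 3041 and 2841. The share of non-members within 5 places of a member that differed by at least 1 was 10.7%, and 7.20% over 20 places away. It was 7.79% against 4.68% with an offset of 64, and 13.2% against 8.86% when scaled to the control probe sets; these alternatives, and taking the brightest probe set first, were chosen after seeing the data. Other probe sets reversed the sign of LOC4351341 (1.51, and 0.037 at one below the filter) and of LOC4331468 (0.15 and 0.19). Causes of these moves were not tested. Of 88 values of named members under other settings, 16 moved by more than the SD over stages, 7 with an offset of 1 and 8 with an offset of 64. All 88 were below 0, which a change of offset could not alter. The additive fit pairs the genotypes by stage; replicates could not be paired, as each group had 1 array and the labels carry no replicate numbers.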

Other observations

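Of the 208 members, 203 are protein coding in the reference table (97.6%, against 98.97% of all unnamed genes past the filter). The 5 others are 3 lncRNA genes, 1 transcribed pseudogene and 1 gene of another RNA class. The lncRNA gene LOC4329327 had signals of 1.09, 1 and 1.398 in transgenic leaves, against 119, 124 and 114 in nontransgenic leaves, a difference of -2.97 ± 0.07 (SD over 3 stages). The lncRNA genes LOC4348069 and LOC4329485 had mean signals of 31.3 and 59.1 in transgenic leaves, against 749 and 747 in nontransgenic leaves. The transcribed pseudogene LOC4325417 had 1.15, 2.24 and 1 in transgenic leaves, against 266, 146 and 65.7 in nontransgenic leaves, and its nontransgenic signal was lowest at 3 h. With 1 annotated transcript each, 150 members (72.1%) stood against 69.0% of all unnamed genes.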
